A study of Homo sapiens with 8 samples.

Results

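Annexins are a family of calcium-dependent phospholipid-binding proteins, and 10 of their genes are described here in human lung adenocarcinoma cells with and without retroviral EN2, the engrailed homeobox transcription factor. All probe sets annotated with a single one of these symbols were taken, which gave 41 probe sets of 49495 on the array and 10 genes of 18244. The family was selected on a result of these same data, the lower ANXA10 signal with EN2 in A549. The EN2 difference in A549 is therefore described for all 10 annexins without p-values, and tests are given for PC9 and for the lines against each other. The comparison of the lines reuses the A549 vector arrays of the contrast that chose the family. Other annexin genes were not analysed here.

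Annexins share a core of repeats that dock on negatively charged membrane lipids, chiefly phosphatidylserine, when calcium rises, while their amino-terminal tails differ and bind partners such as S100 proteins. They are known for roles in vesicle fusion and trafficking, membrane repair, plasmin generation at the cell surface and the resolution of inflammation. In epithelia most members are expressed broadly, whereas ANXA10 is restricted and is used as a marker of gastric-type epithelium, and ANXA9 is an atypical member.

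A549 and PC9 are established human lung adenocarcinoma lines. Each received either an EN2 retrovirus or the Neo control virus (called vector here) and stably infected cells were selected with a drug, so the vector cells carry the virus and the selection too. A549 grew in F-12K and PC9 in Dulbecco's modified Eagle medium, so line and medium cannot be told apart. The labels give no age of the cultures and do not say whether the cells were pools or clones. Each of the 4 groups had 2 single-colour arrays. The labels do not say that these came from separate cultures, so the spread behind each p-value is that of these arrays and may be purely technical.

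EN2 itself read 7.71 and 7.62 on the A549 EN2 arrays against 6.48 and 6.57 on the A549 vector arrays, on the log2 scale used throughout, and rose by 1.15 (limma adjusted p = 0.00028). The A549 call ended with the 18S rRNA covariate described below, though the change stayed at 1.11 (limma adjusted p = 0.13). It also ended without both outer arrays of that signal, where 1 array was left in each A549 group and the change was 1.15. Averaged over the probe sets of EN2 the A549 change was 0.60 (limma adjusted p = 0.0179). In PC9 it read 6.24 and 6.39 with EN2 against 5.86 and 5.78 with vector, a difference of 0.50 ± 0.091 (SE; limma's adjusted p = 0.0801), so the arrays did not overlap but the call was not made. All 5 epithelial markers (EPCAM, CDH1, KRT8, KRT18 and KRT19) were above the spike-in background on all arrays of both lines, but this measure is permissive, since 4 of 5 leukocyte and 3 of 5 fibroblast markers passed it in both lines, as did 3 of 5 endothelial markers in A549 and 4 of 5 in PC9. The leukocyte marker PTPRC, the fibroblast markers DCN and LUM and the endothelial marker TEK were not above it on any array. The background is the level that 95% of ERCC spike-in controls stay under, 4.42 in A549 and 3.94 in PC9. Within this list CDH1 read 8.49 and 8.64 with EN2 against 9.72 and 9.64 with vector in A549, EPCAM 5.19 and 5.34 against 6.05 and 6.03, and KRT19 8.98 and 9.01 against 9.62 and 9.77. The part of this epithelial marker difference in the annexin values was not tested. In A549 the 18S rRNA control signal was lower with EN2 (11.66 and 12.12) than with vector (12.44 and 12.74), and in PC9 it lay between 6.049 and 6.095 in both groups. The arrays measure whole cultures, so fewer expressing cells and less RNA per cell cannot be told apart.

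The start of ANXA10 is shown because this gene had the largest change of the 10, and that of ANXA1 because it shares features with it. ANXA4, the next largest change in A549, is shown for contrast by the upstream of its 2 listed starts. Each run covers 250 bases before and 50 after the transcription start, 5′ to 3′ on the gene's strand, from RefSeq on GRCh38.p14: chr4:168092287-168092586 (plus strand) for ANXA10, chr9:73151615-73151914 (plus) for ANXA1 and chr2:69643558-69643857 (plus) for ANXA4. Capitals mark CAATTA, a homeodomain-type core, and TATAAA, the TATA box.
ANXA10: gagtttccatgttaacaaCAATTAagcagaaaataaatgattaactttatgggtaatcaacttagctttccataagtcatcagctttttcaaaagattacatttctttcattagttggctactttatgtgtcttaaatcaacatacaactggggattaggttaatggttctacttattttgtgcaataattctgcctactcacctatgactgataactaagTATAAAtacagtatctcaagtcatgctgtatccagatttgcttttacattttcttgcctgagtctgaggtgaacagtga
ANXA1: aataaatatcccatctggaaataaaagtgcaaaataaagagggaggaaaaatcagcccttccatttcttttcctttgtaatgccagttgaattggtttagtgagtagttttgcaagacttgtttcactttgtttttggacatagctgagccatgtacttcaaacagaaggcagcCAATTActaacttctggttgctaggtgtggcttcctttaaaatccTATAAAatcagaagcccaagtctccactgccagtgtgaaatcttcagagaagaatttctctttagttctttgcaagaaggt
ANXA4: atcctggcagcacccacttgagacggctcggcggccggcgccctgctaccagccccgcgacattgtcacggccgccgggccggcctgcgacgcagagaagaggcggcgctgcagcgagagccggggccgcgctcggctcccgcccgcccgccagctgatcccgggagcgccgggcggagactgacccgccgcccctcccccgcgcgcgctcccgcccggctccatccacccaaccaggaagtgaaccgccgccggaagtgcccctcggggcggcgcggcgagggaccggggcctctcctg

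All 10 genes had a RefSeq entry, with 14 starts in all. ANXA10 and ANXA1 were AT-rich: 32.7% of the ANXA10 bases and 37.7% of the ANXA1 bases were G or C, against a median of 58.7% over 35116 promoters of the same length. Neither held a CpG dinucleotide, which was true of 3.96% of all promoters, while the printed ANXA4 start was 78.0% G or C with 44 CpG. Of the 14 annexin starts, 4 held TATAAA on the sense strand: ANXA10 at position -29 from the start, ANXA1 and ANXA2 at -31, and 1 ANXA11 start at -61. This motif was in 7.33% of all promoters. CAATTA, searched on both strands, was in ANXA10 at -232 and in ANXA1 at -76 and in no other annexin start, against 7.38% of all promoters. TAATTA, the core of engrailed sites, which reads alike on both strands, was in none of the 14 and in 4.84% of all promoters. CAATTA and TATAAA were chosen after the ANXA10 sequence had been seen. The letters are a description of these windows and say nothing about binding.

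ANXA10 was lower with EN2 in A549. It read 4.91 and 4.85 on the EN2 arrays and 6.35 and 6.67 on the vector arrays, a 3.09-fold difference (4.88 ± 0.048 against 6.51 ± 0.22, SD, n = 2 arrays each). The EN2 arrays stood well below the vector arrays, and they lay only a little above the spike-in background of 4.42. ANXA10 was also lower with EN2 in PC9, at 7.30 and 7.44 against 8.08 and 7.92 with vector. Again the groups did not overlap, with a 1.54-fold difference. This PC9 change of -0.62 ± 0.12 (SE) did not pass limma's test over 18244 genes (adjusted p = 0.091; unadjusted p = 0.000394). Under 15 alternatives the PC9 change ran from -0.70 to -0.55 and its adjusted p from 0.0711 to 0.444. The gene has a single probe set, so no second measurement on the array bears on it.

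**Figure D1:**
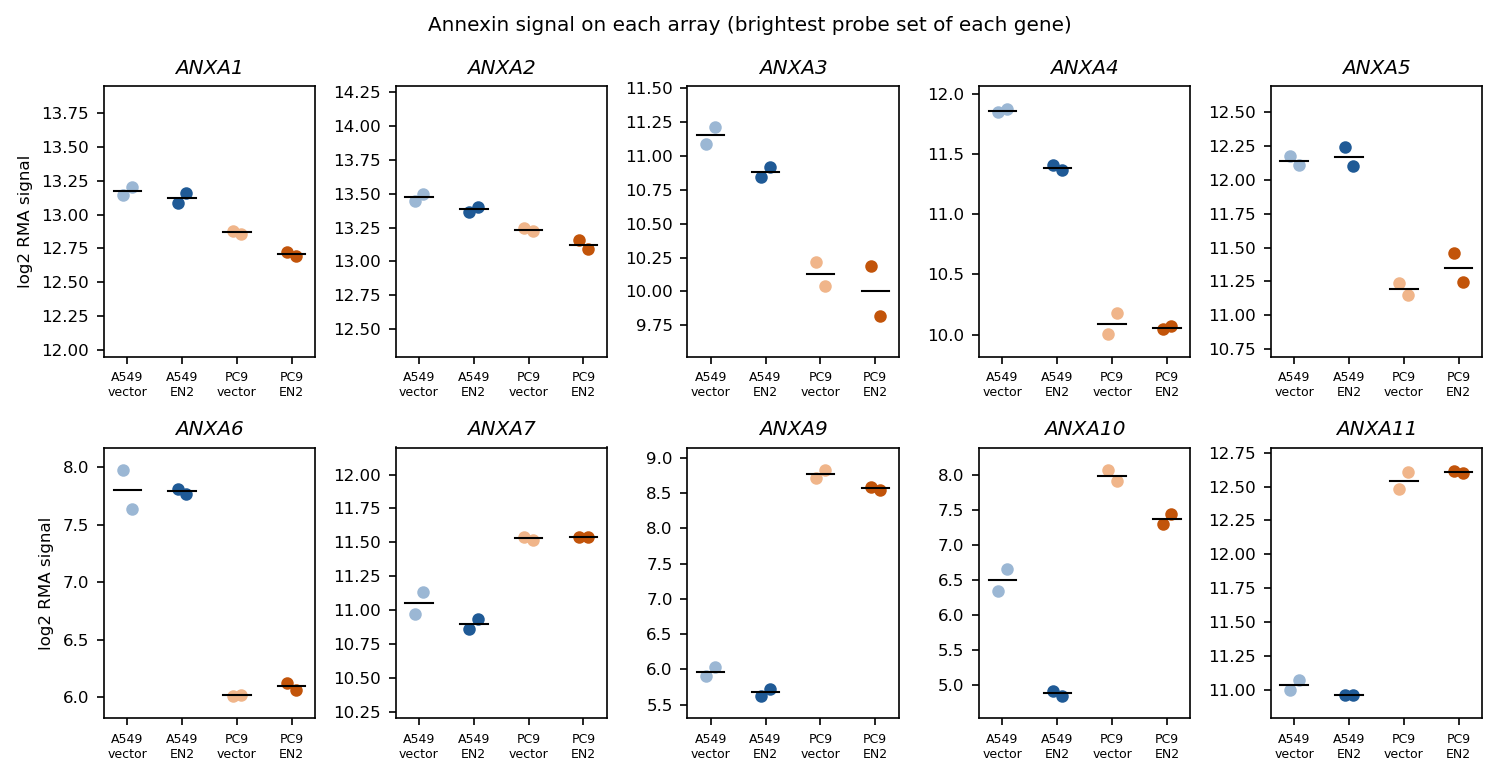
Log2 RMA signal of the brightest probe set of each annexin gene (y axis, a separate range per gene) on the 2 arrays of each group (points; the bar is their mean). ANXA10 is lower with EN2 in both lines, ANXA4 is lower with EN2 in A549, and ANXA9 differs most between the lines (2.80 on the log2 scale between the vector groups).

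ANXA4, a member expressed in secretory epithelia, had the next largest A549 difference of the 10. It read 11.40 and 11.37 with EN2 and 11.84 and 11.88 with vector, a 1.39-fold lower signal. The arrays of the groups did not overlap (SDs of 0.026 and 0.023, n = 2 arrays each). Of its 9 probe sets, the 7 above background on every array were all lower with EN2, by 0.47 to 0.67 on the log2 scale. Of the 2 remaining sets, 1 was below background on all arrays and 1 was above it on only 1 array of each line. Both carry little information. Probe sets of a gene share its transcripts and are not replicates. In PC9, ANXA4 read 10.05 and 10.07 with EN2 and 10.00 and 10.18 with vector, and these arrays overlapped. The PC9 difference of -0.034 ± 0.068 (SE) was not called by limma (adjusted p = 1), although all 9 sets were below 0, by 0.034 to 0.18.

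For reference only, since the family was chosen through this contrast, the fit over all genes called 2.72% of them in A549 (limma, adjusted p below 0.05), 1.15% as lower, and among these were 2 of the 10 annexins, ANXA10 and ANXA4. Nothing is read from that count, nor from the order and median given next, which come from the same contrast. Both EN2 arrays lay below both vector arrays in 7 of the 10 genes and above them in none. Over all genes 23.5% lay below, and 4400 of 18244 lay above. The median A549 difference was -0.12 over the annexins and -0.0015 over all genes.

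The 18S rRNA signal moved with EN2 in A549, as given above. A fit with both can therefore hardly separate them, and neither lost calls nor moved values under this covariate tell them apart. With that signal as a covariate ANXA10 was at -1.50 and ANXA4 at -0.47, and the count of called annexins was 0. With a single array left out, ANXA10 ran from -1.79 to -1.47 and ANXA4 from -0.49 to -0.46. With the covariate, the differences of ANXA1 (0.068) and ANXA7 (0.040) were above 0, those of ANXA3 (-0.13) and ANXA9 (-0.089) were smaller, and ANXA6 went to -0.29 and ANXA5 to -0.17.

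**Figure D2:**
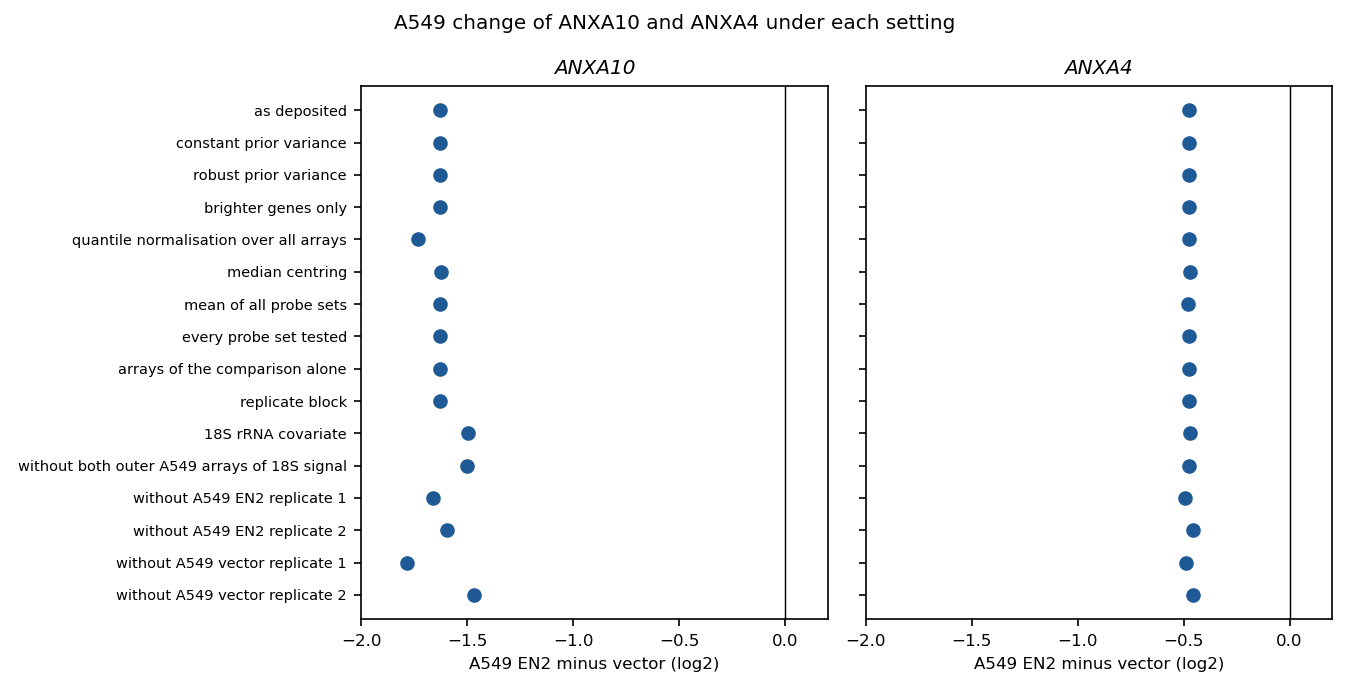
A549 EN2 minus vector difference (x axis, log2) of ANXA10 and ANXA4 as deposited and under 15 alternatives (y axis), 1 point each. ANXA10 lies between -1.79 and -1.47 and ANXA4 between -0.49 and -0.46.

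ANXA1 and ANXA2 are the abundant members that bind S100A11 and S100A10 through their tails. ANXA1 is known as a glucocorticoid-induced, anti-inflammatory protein. In A549 it read 13.09 and 13.16 with EN2 and 13.14 and 13.21 with vector, and these arrays overlapped. The PC9 arrays read 12.72 and 12.70 with EN2 and 12.88 and 12.85 with vector, without overlap. All 5 ANXA1 probe sets were lower with EN2 in PC9, by 0.16 to 0.19, and on each both EN2 arrays lay below both vector arrays. The change of -0.16 ± 0.047 (SE) was not called by limma (adjusted p = 0.39). In A549, 4 of the 5 sets were below 0 and the dimmest was at 0.21. Both A549 EN2 arrays lay below both vector arrays on 2 of the sets, and the arrays overlapped on 3, among them the dimmest.

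ANXA2 forms a heterotetramer with S100A10 that binds plasminogen and its activator at the cell surface. In A549 it read 13.37 and 13.41 with EN2 against 13.45 and 13.50 with vector. The PC9 values were 13.16 and 13.09 against 13.25 and 13.22. The groups did not overlap in either line, but the differences were small, at 1.06-fold and 1.08-fold. The same order held on all 6 ANXA2 probe sets in both lines, with PC9 differences of -0.22 to -0.11. The PC9 change of -0.11 ± 0.045 (SE) was not called (limma adjusted p = 0.7). All but 1 of the ANXA2 sets have names that mark possible cross-hybridisation, and near-identical pseudogene copies exist (ANXA2P1, ANXA2P2 and ANXA2P3), so RNA of ANXA2 and of these copies cannot be told apart. The only ANXA2 set whose name carries no cross-hybridisation suffix read 8.21 and 8.18 with EN2 and 8.39 and 8.51 with vector in A549, and 7.20 and 7.31 against 7.51 and 7.40 in PC9. The sets that stand for ANXA1, ANXA3, ANXA4 and ANXA5 also have names with such a suffix.

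ANXA3, a member first known from neutrophil granules, read 10.85 and 10.92 with EN2 and 11.09 and 11.22 with vector in A549, without overlap. In PC9 it read 10.19 and 9.82 against 10.22 and 10.04, where the arrays overlapped and the change of -0.13 ± 0.11 (SE) was not called (limma adjusted p = 1). The PC9 direction rested on 1 array, since without EN2 replicate 2 the change was 0.058. ANXA9, which lacks typical calcium-binding residues, read 5.63 and 5.72 with EN2 and 5.90 and 6.03 with vector in A549. Its PC9 values were 8.59 and 8.55 against 8.71 and 8.83. ANXA9 arrays did not overlap in either line, and the PC9 change of -0.20 ± 0.088 (SE) was not called (limma adjusted p = 0.738).

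ANXA5, whose protein is the common probe for exposed phosphatidylserine on dying cells, showed no clear A549 difference, at 12.24 and 12.10 with EN2 and 12.17 and 12.11 with vector. In PC9 it read 11.46 and 11.24 with EN2 and 11.24 and 11.15 with vector, and the lower EN2 array lay just above the higher vector array. On all 6 ANXA5 probe sets both PC9 EN2 arrays were above both vector arrays, by 0.100 to 0.31 in the means. The change of 0.16 ± 0.080 (SE) was not called (limma adjusted p = 0.806), and it was 0.051 without EN2 replicate 1. ANXA6, the member with a doubled core, read 7.81 and 7.77 with EN2 and 7.97 and 7.63 with vector in A549. It read 6.12 and 6.06 against 6.01 and 6.02 in PC9, a change of 0.079 ± 0.11 (SE; limma adjusted p = 1).

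ANXA7 and ANXA11 carry long tails and bind the calcium sensors sorcin and ALG-2, and ANXA11 tethers RNA granules to lysosomes. ANXA7 read 10.86 and 10.93 with EN2 and 10.97 and 11.13 with vector in A549, and between 11.52 and 11.54 on all PC9 arrays. The PC9 change of ANXA7 was 0.011 ± 0.065 (SE; limma adjusted p = 1). ANXA11 read 10.96 on both A549 EN2 arrays and 10.9985 and 11.07 with vector. In PC9 it read 12.62 and 12.60 with EN2 and 12.48 and 12.61 with vector, a change of 0.064 ± 0.058 (SE; limma adjusted p = 1). All 8 ANXA11 probe sets were above 0 in PC9, by 0.042 to 0.15, and 7 of 8 were below 0 in A549. Whether the EN2 difference of any annexin differs between the lines was not tested.

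No annexin was called in PC9, where 0.367% of all genes were. Unadjusted, 4 of the 10 had p below 0.05 with limma (ANXA1, ANXA2, ANXA9 and ANXA10), all lower, and 6.75% of all genes had such a p in either direction. With every probe set tested, none of the 41 was called, against 0.279% of 49495. Both EN2 arrays lay below both vector arrays in 4 of the 10 genes, namely those same 4, against 15.2% of all genes. They lay above in 2, ANXA5 and ANXA6, against 3225 of all 18244 genes. Of the 41 probe sets, 15 had the lower order, 14 had the higher order and 12 overlapped. ANXA2, ANXA9 and ANXA10 had the lower order in both lines, which is 3 of 10 in a family chosen through A549, against 3.82% of all genes. Nothing is read from this joint count, since its A549 part comes from the contrast that chose the family. The median PC9 difference was -0.071 over the annexins and 0.0040 over all genes.

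**Figure D3:**
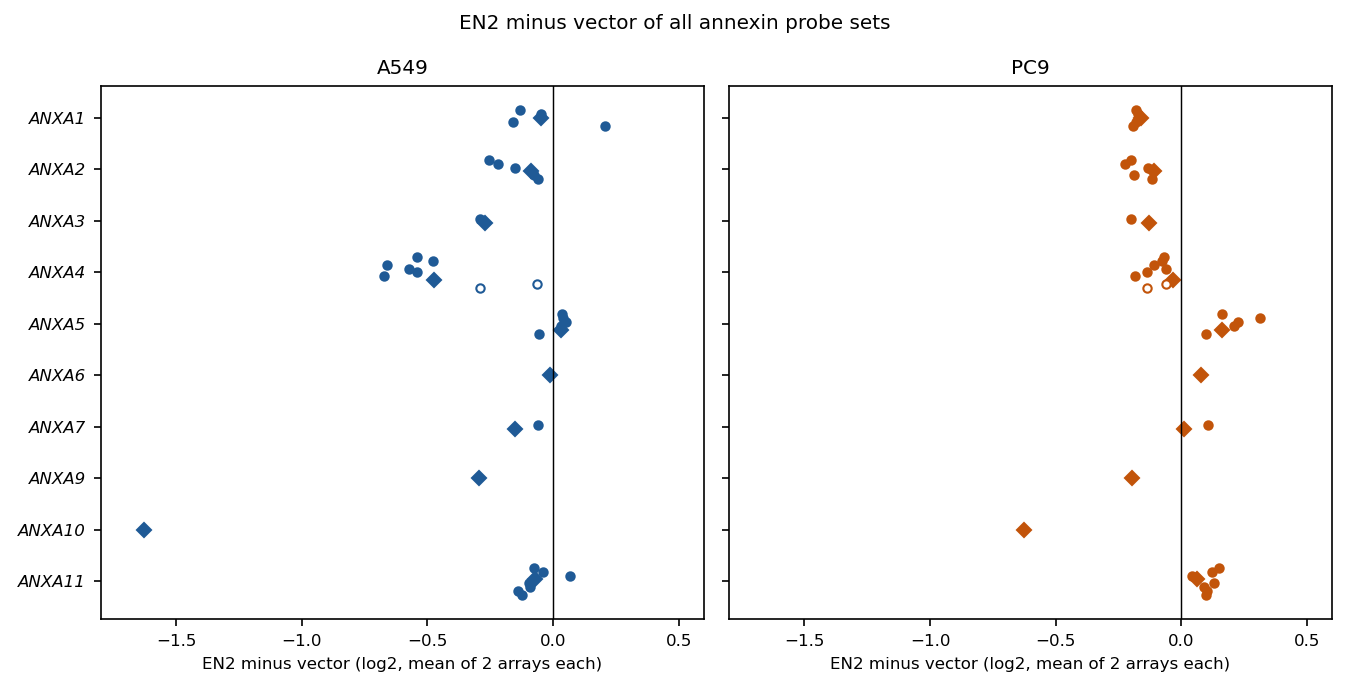
EN2 minus vector difference (x axis, log2, group means of 2 arrays) of all 41 annexin probe sets by gene in A549 and in PC9. Diamonds are the probe set that stands for the gene, circles its other sets, and open circles sets not above background on every array; ANXA10 lies farthest left in both lines, at -1.63 and -0.62.

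The vector arrays of A549 and PC9 were compared to see which annexins each line carries without EN2. All 10 differed by limma's test, 6 higher in A549 and 4 higher in PC9. This is close to the rule for these lines, since 75.8% of all genes were called, 46.0% higher and 29.7% lower in A549. The scale between the lines is not known, because the arrays of a line lie close together and apart from the other line. The 18S rRNA signal also differed by line, at 12.44 and 12.74 on the A549 vector arrays and 6.049 and 6.095 on the PC9 vector arrays. A difference in RNA or array handling between the lines therefore cannot be told apart from the lines themselves. The median difference over all genes was 0.17 as deposited, -0.025 after quantile normalisation over all arrays and -0.068 after median centring. The share of calls higher in A549 was 60.8% as deposited, 47.9% after quantile normalisation and 43.9% after median centring.

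Higher in A549 were ANXA6 and ANXA4 by the largest amounts. ANXA6 was 3.46-fold higher (1.79 ± 0.11 SE, limma adjusted p = 3.02e-07) and ANXA4 was 3.40-fold higher (1.77 ± 0.068, adjusted p = 1.16e-08). ANXA3 was 2.03-fold higher (limma adjusted p = 2.09e-05) and ANXA5 1.93-fold (adjusted p = 2.77e-06). For each of these 4 genes the A549 and PC9 vector arrays were far apart, and the call held under all 15 alternatives. ANXA1 was 1.24-fold and ANXA2 1.18-fold higher, and both calls ended with median centring (0.067, adjusted p = 0.206, and -2.1e-05, adjusted p = 1, by limma). For ANXA1 the alternatives otherwise gave adjusted p-values down to 8.56e-07, and for ANXA2 down to 1.77e-06. On the set that stands for each gene, a difference in ANXA1 or ANXA2 thus depends on the scale chosen. The other sets were not tested after median centring, which shifts all sets of an array by the same amount. Dependence on the scale is thus not shown for sets with larger differences. As deposited, the 5 probe sets of ANXA1 ran from 0.31 to 2.41 and all were called, and the set that stands for the gene had the smallest difference. The 6 probe sets of ANXA2 ran from 0.062 to 0.996, and 5 were called. The largest difference was on the only ANXA2 set whose name carries no cross-hybridisation suffix (0.996, limma adjusted p = 3.63e-06 with every probe set tested).

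Higher in PC9 were ANXA9, ANXA11, ANXA10 and ANXA7. ANXA9 read 8.71 and 8.83 on the PC9 vector arrays and 5.90 and 6.03 on the A549 vector arrays, a 6.96-fold difference (2.80 ± 0.088 SE lower in A549, limma adjusted p = 2.91e-09). ANXA11 was 2.85-fold higher in PC9 (limma adjusted p = 1.16e-08), with all 8 sets between -1.92 and -1.51 as A549 minus PC9. ANXA10 was 2.80-fold higher in PC9, at 8.08 and 7.92 against 6.35 and 6.67 (limma adjusted p = 1.74e-06). These A549 vector arrays are also in the contrast that chose the family, so the ANXA10 test is not independent of that choice. ANXA7 was 1.39-fold higher (limma adjusted p = 8.57e-05). These 4 kept their direction and call under all 15 alternatives. The EN2 arrays lay in the same order between the lines for all 10 genes, a count that was not set against all genes. Between the vector lines the arrays overlapped in only 2111 of 18244 genes, so such separation is common for these lines. With every probe set tested, 40 of the 41 were called (28 higher and 12 lower in A549), against 74.2% of 49495.

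**Figure D4:**
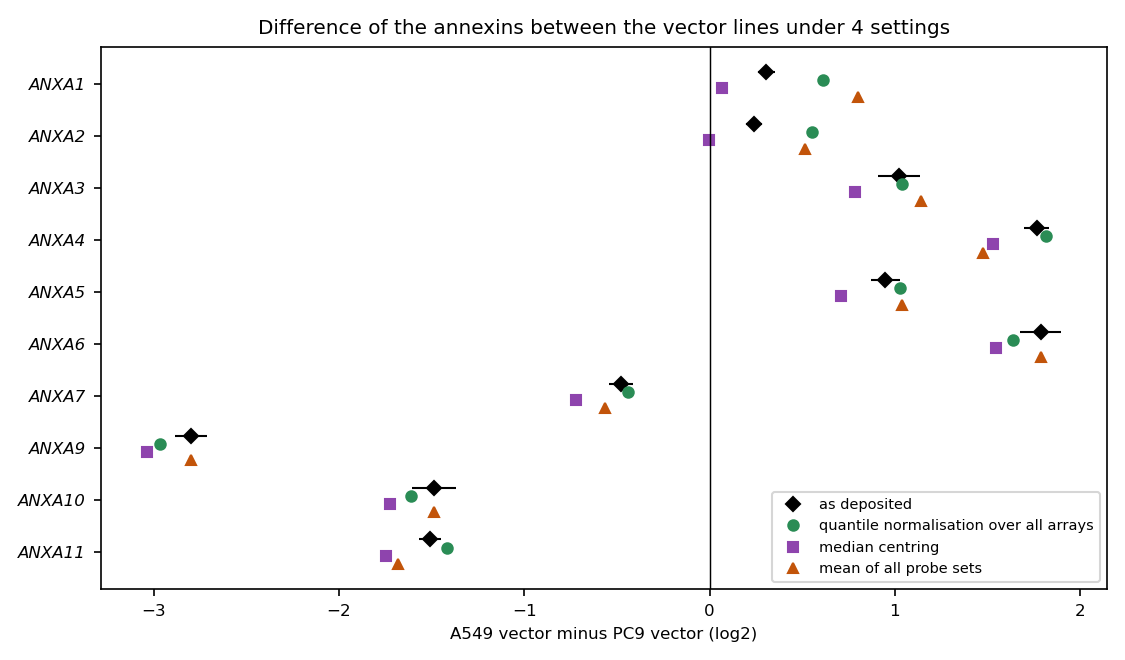
A549 vector minus PC9 vector difference (x axis, log2) of each annexin gene as deposited (diamonds, with the SE of limma's fit) and under 3 alternative settings (other symbols). ANXA3, ANXA4, ANXA5 and ANXA6 stay right of 0 and ANXA7, ANXA9, ANXA10 and ANXA11 left of 0, while ANXA1 and ANXA2 reach 0.067 and -2.1e-05 with median centring.

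The list counts below stand beside 2.72% of all genes called with EN2 in A549 and 0.367% in PC9. Over all genes the median change was -0.0015 in A549 and 0.0040 in PC9. Among 18 direct partners of annexins, all measured, 1 fell in A549 with EN2, none rose and 17 were not called. The one that fell was S100A10, the partner of ANXA2, which read 11.97 and 11.88 with EN2 and 12.15 and 12.30 with vector (-0.31, limma adjusted p = 0.0332). In PC9 it read 12.54 and 12.61 against 12.91 and 12.86, a change of the same size that was not called (-0.31, limma adjusted p = 0.114). The A549 call held in 8 of 15 alternatives, with adjusted p from 0.0195 to 0.804. It was lost on dropping A549 EN2 replicate 1 (-0.35), EN2 replicate 2 (-0.26) or vector replicate 2 (-0.23), on adding the 18S rRNA covariate (-0.30), without both outer arrays (-0.28), with a constant prior variance and on the A549 arrays alone. S100A11, the partner of ANXA1, was at -0.039 in A549 and -0.046 in PC9. The median of the partner list was -0.022 in A549 and -0.023 in PC9. Of the 12 other S100 genes, S100A16 fell in A549 (-0.35, limma adjusted p = 0.0197), none rose and 11 were not called. S100A16 was not called when EN2 replicate 1 (-0.30) or vector replicate 2 (-0.30) was dropped, nor with the 18S rRNA covariate (-0.17). Its call held in 9 of 15 alternatives and also ended with a constant prior variance, on the A549 arrays alone and without both outer arrays (-0.25).

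Plasmin generation at the cell surface, where ANXA2 and S100A10 act, had 8 measured genes. SERPINE2, a protease inhibitor, fell in A549 (-0.44, limma adjusted p = 0.00986), none rose and 7 were not called. The SERPINE2 call held in 11 of 15 alternatives and was lost without vector replicate 2 (-0.43), with the 18S rRNA covariate (-0.49), on the A549 arrays alone and without both outer arrays (-0.47). Membrane repair genes, among them DYSF and the calpains, had no call among 15 in A549 and a median of -0.037. Of 13 genes of phosphatidylserine exposure and return, PROS1, the gene of protein S, rose in A549 (0.73, limma adjusted p = 0.0154), none fell and 12 were not called. PROS1 was not called when EN2 replicate 1 (0.64), vector replicate 1 (0.72) or vector replicate 2 (0.73) was dropped, nor with the covariate (0.58) or without both outer arrays (0.65), and was called in 10 of 15 alternatives. None of the genes of these lists was called in PC9. Between the vector lines most were called, as were 75.8% of all genes (46% higher and 29.7% lower in A549). Of the 18 partners 9 were higher and 7 lower in A549. In that order the counts were 4 and 6 of the 12 other S100 genes, 5 and 1 of the 8 plasmin genes and 6 and 8 of the 15 repair genes. They were 5 and 7 of the 13 phosphatidylserine genes and 7 and 5 of the 16 gastric genes treated next.

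Gastric epithelial genes were listed because ANXA10 is used as a gastric marker. Of 16 measured, 2 rose in A549, none fell and 14 were not called, and the median was -0.057. TFF1, a trefoil peptide gene of the gastric surface, rose by 2.68 (limma adjusted p = 1e-05) where ANXA10 was lower. GATA6, an endoderm transcription factor gene, rose by 0.85 (limma adjusted p = 0.0232). GATA6 was not called when EN2 replicate 1 (0.65) or vector replicate 2 (0.78) was dropped, nor with the 18S rRNA covariate (0.33), without both outer arrays (0.59) or on the A549 arrays alone, and was called in 10 of 15 alternatives. In PC9, none of the 16 was called, and GATA6 was at -0.64 (limma adjusted p = 0.228). GKN1 and GKN2, which mark the gastric surface, were not above background on any array.

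The genes whose pattern over the 8 arrays lay closest to each annexin were found among 17482 by the root mean square difference of centred log2 values. The pattern is dominated by the difference between the lines, so these values describe the arrays only. Closest to ANXA10 were ABCG2, a drug efflux transporter gene (0.29, r = 0.970), PRSS3, a trypsinogen gene (0.35, r = 0.955), and CDH1, the gene of E-cadherin (0.37, r = 0.966). ABCG2 was lower with EN2 in both lines (-1.09 and -1.14), whereas CDH1 was at -1.11 in A549 and 0.011 in PC9. Closest to ANXA4 were HLA-DMB (0.069), PCSK1N (0.094) and ATP9B (0.11), and closest to ANXA9 were ALOX5 (0.094), FAM83A (0.097) and PIERCE1 (0.099). For ANXA3 the nearest was PIK3R1 (0.080), for ANXA5 NAT8 (0.034), for ANXA6 CALN1 (0.059) and for ANXA11 BSCL2 (0.027). ANXA1, ANXA2 and ANXA7 spanned less than 1 on the log2 scale and were not compared in this way.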

How the data were processed

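Expression was measured on single-colour arrays of biotin-labelled cDNA from 8 RNA samples. The authors deposited log2 values per probe set, and the submitters' processing notes name RMA. No source used here gives its version or says whether all arrays were normalised together. Of 49495 probe sets, 45284 carried 1 symbol in the array annotation, 1333 several and 2878 none. Symbols were updated by Entrez identifier through RefSeq on GRCh38.p14 (45214 matched). A gene was represented by its brightest probe set (18244 genes), without a filter on dim sets.

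Group means were fitted to all 8 arrays with limma 3.58.1 in R 4.3.3 (lmFit, eBayes with an intensity trend, 4 residual degrees of freedom). P-values are two-sided and Benjamini-Hochberg adjusted over all genes of a comparison, and a call means an adjusted p below 0.05. For the annexins 20 such tests are reported. A permutation test of 2 arrays against 2 could not reach that threshold. Lists are described by counts and medians. The fit was also run on simulated data, where the recovery asked of it was lowered after a first run fell short and the random seed was later changed, so this run supports nothing here.

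The members, lists and alternatives were chosen with earlier results of these data known. Named genes are all members, EN2, the called genes of each list (at most 6 of smallest p), and the 3 genes closest in pattern to each annexin with a range of at least 1, leaving out uncharacterised loci and small or antisense RNAs. S100A11, GKN1, GKN2 and the marker genes given with values were added after their values were seen. Precision is limited by the number of arrays.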

Additional observations from a re-analysis of the deposited data

How the results depend on the processing

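Across 15 alternatives for each annexin and comparison, no call was gained or lost in PC9, and in the comparison of the vector lines ANXA1 and ANXA2 lost theirs with median centring alone, where ANXA2 was at -2.1e-05. In PC9, leaving out 1 array moved ANXA3 from -0.31 to 0.058 and ANXA4 from -0.12 to 0.055, none called. The A549 count of 2 annexins became 0 with the 18S rRNA covariate. ANXA4 was also no longer called without both outer arrays of that signal (-0.48), without EN2 replicate 1 (-0.49) or without vector replicate 2 (-0.46). Those fits leave a single array in a group. Of the genes in the 6 lists, 6 were called in A549 and 0 in PC9. The A549 number was 2 on the A549 arrays alone, 1 with the covariate, 1 without both outer arrays and 1 to 6 with an array left out; in PC9 it was 0 to 1 with an array left out.

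Replicate numbers are shared by label only, and same-numbered arrays deviated together at r = 0.35 in A549 and 0.066 in PC9 across genes. The replicate block called 13 list genes in A549 and 2 in PC9 (1 of them GATA6, at -0.64, limma adjusted p = 0.0186, below 0 where its A549 change was above), and 1393 and 126 of all genes. Of the annexins the block called 3 in A549, where ANXA3 joined ANXA10 and ANXA4, and 0 in PC9. Without the block 496 and 67 of all genes were called. On the arrays of a line alone these were 92 and 23, without both outer arrays 25 and 27, with the covariate 20 in A549, and with an array left out 112 to 623 and 19 to 62. The cause was not tested. Signal close to background limits ANXA10 with EN2 in A549, and signal near or below it limits 2 ANXA4 sets.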

Other observations

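Some partner and other S100 genes, chosen here after their values were seen, were bright in 1 line and dim in the other. PLA2G4A, the cytosolic phospholipase that ANXA1 is known to inhibit, read 9.43 and 9.51 on the A549 vector arrays and 3.42 and 3.52 on the PC9 vector arrays, the latter below background, so no fold is given. FPR2, a receptor for ANXA1 peptides, was dim in both, at 4.88 and 4.82 with A549 vector, just above background, and below it on all PC9 arrays. S100A14 read 10.92 and 11.22 with PC9 vector and 4.81 and 5.15 with A549 vector. S100A3 ran the other way, at 10.14 and 10.31 in A549 vector and 5.66 and 5.17 in PC9 vector.

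S100A8 and S100A9, which form calprotectin, varied widely within PC9. S100A8 read 8.17 on PC9 vector replicate 2 and 5.46 on replicate 1, against 4.84 and 5.63 with EN2. S100A9 read 11.09 and 9.73 with vector against 9.12 and 9.74 with EN2. The PC9 changes of -1.58 and -0.98 were not called (limma adjusted p = 0.711 and 0.653), and the high array is the same for both genes.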
